A study of Mus musculus with 2 samples.

Results

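The cells described here are bone marrow cells in which Zbtb16 and Pdcd1 were detected together or repeatedly, taken from a sort of α4β7-expressing mouse lymphoid progenitors (αLPs). Zbtb16 encodes the transcription factor PLZF and Pdcd1 encodes the receptor PD-1. The cells were chosen by their measured UMIs in this library, so those genes are a description here. A cell was taken when its unique molecular identifiers (UMIs, tags that count single RNA molecules) for Zbtb16 and Pdcd1 summed to at least 2. It also had to stay under upper limits for natural killer (NK) and group 1 innate lymphoid cell (ILC) genes, for ILC2 genes, for early ILC2 genes, for Dntt and Ly6d, for Cd74 and for genes of cell division. The rule took 573 of 7258 bone marrow cells that passed quality limits, a share of 7.89% with an exact 95% binomial interval of 7.28 to 8.54%. Both tissues of the series together held 15841 such cells. The 573 are called Zbtb16/Pdcd1 cells below.

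The series holds 1 library from adult bone marrow and 1 from fetal liver at E14.5, both from untreated B6 wild-type mice. Live cells were sorted as lineage-negative, positive for CD45, CD127 and α4β7, and negative for Flt3 and CD25. Both samples are labelled as 6 to 8 weeks old, which fits the adult marrow alone. No source used here gives the number of animals behind a library, whether they were pooled, or their sex.

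PLZF marks a bone marrow precursor that gives rise to ILC1, ILC2 and ILC3 cells but to few conventional NK cells, and PD-1 is found at the surface of the same precursor in mouse marrow. In such precursors TCF-1, TOX, ID2 and GATA3 act in sequence to leave B and T cell fates and open ILC fates. PLZF itself is switched off again as the cells become committed, so its RNA is most abundant in a passing stage.

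The 573 cells held 2721855 UMIs, with a median of 4339 UMIs and 1458 genes per cell, against a median of 3335 UMIs and 1217 genes in the other 6685 marrow cells. The library totals were 30039931 UMIs in bone marrow and 91781395 UMIs in fetal liver. A sum of raw UMIs is met more easily by deep cells. When each cell was thinned to 2000 UMIs before the rule was applied, it took 242 of 5923 marrow cells (4.09%). Levels are given as UMIs per 1000000 UMIs of the group (CPM). With 1 library per tissue there is no replicate, so no test was made, and every interval covers counting error only. The 2 libraries shared 19 kept barcodes, and 1 of these belonged to a Zbtb16/Pdcd1 cell.

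Both marker genes were detected in 294 of the 573 cells (51.3%, interval 47.1 to 55.5%). Zbtb16 alone was detected in 193 cells (33.7%) and Pdcd1 alone in 86 (15.0%). The marker sum was exactly 2 in 358 cells, 3 in 144 and 4 or more in 71, with a highest value of 7. Zbtb16 lies at chr9:48654297-48836222 and Pdcd1 at chr1:94038305-94052553, both on the minus strand of mm10. These values chose the cells and are a description. Just outside the rule, 726 marrow cells met all upper limits with a sum of 1, and 1990 met them with a sum of 0. Before the upper limits, 782 marrow cells had a sum of at least 2. The limit on early ILC2 genes took out the most of these, 129 when applied alone, followed by the ILC2 limit with 50.

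Sequences upstream of 3 genes are shown because Pdcd1 chose the cells and because Cela1 and Fgf3 are among the 10 genes furthest up over both committed classes below. Cela1 and Fgf3 were picked for display with their matches known, as the only genes looked up whose windows hold both motifs. Each is the 250 bases before the RefSeq start of transcription in build GRCm38.p6, read 5′ to 3′ on the gene's own strand. Capitals mark matches to CTTTGA, a core of sites bound by TCF-1, and to AGATAA, a core of sites bound by GATA factors, on either strand. No 2 of the matches overlap. The Pdcd1 window is chr1:94052554-94052803 on the minus strand, the Cela1 window chr15:100687921-100688170 on the minus strand and the Fgf3 window chr7:144838362-144838611 on the plus strand.
Pdcd1: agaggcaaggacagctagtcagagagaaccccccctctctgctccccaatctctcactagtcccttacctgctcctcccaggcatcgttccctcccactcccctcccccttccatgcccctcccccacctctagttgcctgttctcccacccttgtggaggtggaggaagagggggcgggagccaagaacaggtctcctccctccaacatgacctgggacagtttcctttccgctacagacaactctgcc
Cela1: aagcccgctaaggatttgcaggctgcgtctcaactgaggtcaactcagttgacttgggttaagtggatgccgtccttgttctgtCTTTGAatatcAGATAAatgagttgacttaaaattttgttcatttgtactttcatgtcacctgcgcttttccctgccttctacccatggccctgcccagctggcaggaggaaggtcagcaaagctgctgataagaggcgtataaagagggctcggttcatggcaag
Fgf3: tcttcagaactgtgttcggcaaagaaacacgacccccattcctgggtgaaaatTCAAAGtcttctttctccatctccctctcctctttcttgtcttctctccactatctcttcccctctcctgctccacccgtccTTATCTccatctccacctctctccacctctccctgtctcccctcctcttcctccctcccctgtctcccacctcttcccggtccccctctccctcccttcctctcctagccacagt

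The Cela1 window held CTTTGA at -166 and AGATAA at -155 from the start of transcription, both on the gene's strand. The Fgf3 window held both on the opposite strand, at -197 and -115. The Pdcd1 window held neither, nor did those of Igfbp7, Bcas1os2, Pgam2 and Lrrc52. CTTTGA alone was found in 1 of 2 windows of Tnni1 and in 2 of 5 windows of Tox2. Of 32851 RefSeq windows of this length, 13.8% held CTTTGA and 9.99% held AGATAA on either strand. A match is a stretch of letters and no evidence of binding. RefSeq windows were found for 9 of 13 genes looked up, and not for Zbtb16, Hey1, Bcas1 and Ccl5.

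The label of the population rests on 4 markers. Zbtb16 and Pdcd1 chose the cells, so only Tcf7 and Klrd1 can check it, and Klrd1 went against it. Tcf7, which encodes TCF-1, stood at 487 CPM in the Zbtb16/Pdcd1 cells and 255 CPM in the rest of bone marrow. Klrd1, which encodes the CD94 chain of NK receptors, had only 18.4 CPM, against 173 CPM in the rest. Its 50 UMIs in these cells came from 7 cells, 29 of them from 1 cell. At 2000 UMIs per cell, 0.709% of the Zbtb16/Pdcd1 cells had a Klrd1 UMI. The share was 67.1% of the NK or ILC1-like cells and 2.27% of the Dntt or Ly6d lymphoid cells. Before thinning the shares were 1.22%, 76.6% and 4.92%, at median depths of 4339, 5083 and 6245 UMIs. Klrd1 was thus undetected in nearly all Zbtb16/Pdcd1 cells, and the source of its UMIs in the few others was not tested.

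Among the other genes used to check the label, Tox stood at 256 CPM and Id2 at 1346 CPM, against 133 and 901 CPM in the rest. Il18r1 was near level at 201 against 227 CPM, and Cd7, another surface gene of NK cells, was low at 26.5 against 99.5 CPM. The gate was met as far as RNA shows it. Il7r, which encodes CD127, stood at 437 CPM, Itga4 at 286 CPM, Itgb7 at 47.8 CPM and Ptprc, which encodes CD45, at 122 CPM. Flt3 and Il2ra, which encodes CD25, had 1 UMI each.

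Markers of other blood lineages ranged from no UMI to well detected. None of the 5 myeloid markers (Lyz2, Csf1r, Mpo, S100a8, S100a9) had a UMI in the 573 cells. Cpa3, a protease gene of mast cells and basophils from a longer myeloid list, was detected, at 119 CPM, against 195 CPM in the rest. Cd79b, which encodes a chain of the B cell receptor, stood at 29.8 CPM, against 28.9 CPM in the rest. Pax5, a B cell transcription factor, was at 0. The 8 NK or ILC1 markers summed to 646 CPM against 443 CPM in the rest, of which Nkg7 gave 638 CPM, with Klrb1c, Tbx21 and Prf1 at 0. The 8 ILC2 markers summed to 478 CPM against 747 CPM, of which Gata3 gave 457 CPM, with Il13 and Klrg1 at 0. The rule limits 5 markers of each of these last lists. Il23r, Ccr6, Rag1 and Rag2 were at 0 as well. The part of other cell types in these levels was not tested. The summed level of Cd3d, Cd3e and Cd3g was 7.72 CPM, against 13.8 CPM in the rest of marrow. The constant chains of the T cell receptor and of antibodies were not analysed here.

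The plot of regulators and receptors by class places the Zbtb16/Pdcd1 cells among the other ILC-lineage cells of the same library. Each class reached 1 of the rule's upper limits and met the other 5, with no condition on Zbtb16 or Pdcd1. There were 218 NK or ILC1-like cells, 835 ILC2 progenitor-like cells, 1219 early ILC2-like cells and 447 lymphoid cells with Dntt or Ly6d. Tcf7 was highest in the Zbtb16/Pdcd1 cells at 487 CPM, followed by 363 CPM in lymphoid, 229 in NK or ILC1-like, 165 in early ILC2-like and 103 in ILC2 progenitor-like cells. Tox had the same leader at 256 CPM, against 75.4 to 145 CPM in the other classes. Tox2, its close relative, stood at 298 CPM, against 158 CPM in early ILC2-like cells and 23.6 to 48.2 CPM in the other 3. Myb, a factor of immature blood cells, was at 119 CPM, below the 228 CPM of lymphoid cells and above the 20.6 to 48.5 CPM of the ILC classes.

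**Figure D1:**
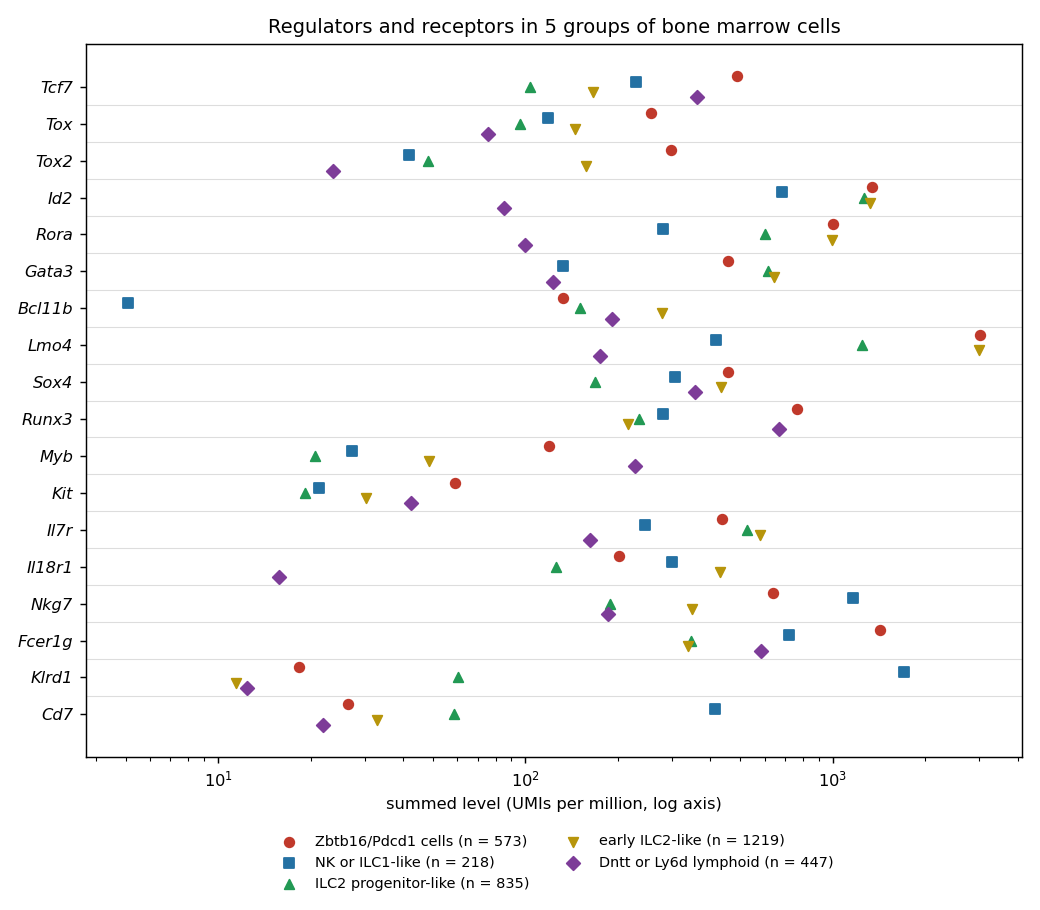
Summed level of 18 listed genes in CPM on a log axis, in 5 groups of cells of the bone marrow library, with the number of cells in the legend and 1 marker per group. Tcf7, Tox and Tox2 are highest in the Zbtb16/Pdcd1 cells, while Klrd1 and Cd7 are far below the NK or ILC1-like cells.

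Several ILC regulators had levels close to those of the early ILC2-like cells. Id2, the inhibitor of E proteins that all ILCs need, stood at 1346 CPM, against 1319 CPM in early ILC2-like cells. Lmo4, a LIM-domain adaptor, stood at 3010.4 and 2994 CPM and Rora, which ILC2 cells need, at 999 and 996 CPM. Gata3 and Bcl11b were lower in the Zbtb16/Pdcd1 cells, at 457 and 133 CPM, than in the early ILC2-like cells, at 645 and 279 CPM. Runx3 was higher, at 765 against 216 CPM. Id2, Lmo4 and Rora were thus at like levels in both groups, while Tcf7, Tox, Tox2 and Runx3 were higher in the Zbtb16/Pdcd1 cells.

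Against the rest of bone marrow few genes were far higher. Of 4681 genes with at least 20 CPM in either group, 55 (1.17%) were at least 2-fold higher in the Zbtb16/Pdcd1 cells and 190 (4.06%) at least 2-fold lower. Cela1, a secreted serine protease of the elastase family, had 94.4 CPM, against 25.4 CPM in the rest of marrow (log2 ratio 1.89, interval 1.68 to 2.10). Igfbp7, a secreted binder of insulin-like growth factors, had 241 and 73.9 CPM (1.71, 1.58 to 1.84). Tnni1, the troponin I of slow muscle, had 160.2 and 53.4 CPM, and Hey1, a repressor induced by Notch, 63.9 and 21.5 CPM. Each of these 4 ratios was above 1.5 on the log2 scale.

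Bcas1, known from myelinating glia, stood at 273 CPM in the Zbtb16/Pdcd1 cells and 95.3 CPM in the rest (log2 ratio 1.52). Its antisense neighbour Bcas1os2 (65.0 and 20.5 CPM) lies inside the Bcas1 locus at chr2:170346991-170427845, on the other strand. The sources used here do not give the strand setting of the counting, so the split of reads between them is uncertain. Tox2, Pgam2 and Lrrc52 completed the list with Ccl5, a chemokine of cytotoxic and memory lymphocytes. Ccl5 had by far the most RNA of these, 3689 CPM against 1365 CPM (log2 ratio 1.43). With cells thinned to 2000 UMIs its log2 ratio was 0.80 and that of Lrrc52 0.84, against 1.48 unthinned.

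Among the genes furthest down against the rest were surface receptors and chemokines. Ly6a, which encodes the stem cell and ILC2 antigen Sca-1, had 8.08 CPM, against 125 CPM (-3.95, -4.63 to -3.35). Ccr9, the gut-homing receptor for CCL25, had 8.82 and 87.3 CPM (-3.31), and Cxcr6 had 13.6 and 75.6 CPM (-2.48). The chemokine genes Cxcl2 and Xcl1, the scavenger receptor gene Stab2 and the transcription factor gene Bhlhe40 were lower too, with log2 ratios of -2.78, -2.55, -2.64 and -2.45. Among cells with at least 1000 genes the log2 ratio of Ly6a was -2.84, of Ccr9 -2.64 and of Bhlhe40 -1.70. With thinned cells that of Cxcr6 was -0.97.

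Rrm2 and H2-Aa were also in the lowest 10, but the rule limits dividing and Cd74-rich cells. Of 21 measured ILC progenitor transcription factors, 1, Tox2, was at least 2-fold higher than in the rest and 1, Runx1, lower, with a median log2 ratio of 0.40 (-0.02 over all genes). Of 12 measured ILC progenitor surface genes, 5 were lower and none higher, with a median of -0.38, among them Ly6a, Ccr9, Klrd1 and Cxcr6. That 13 of 20 measured S phase genes and 3 of 6 measured MHC class II genes were at least 2-fold lower therefore follows in part from the choice of cells.

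**Figure D2:**
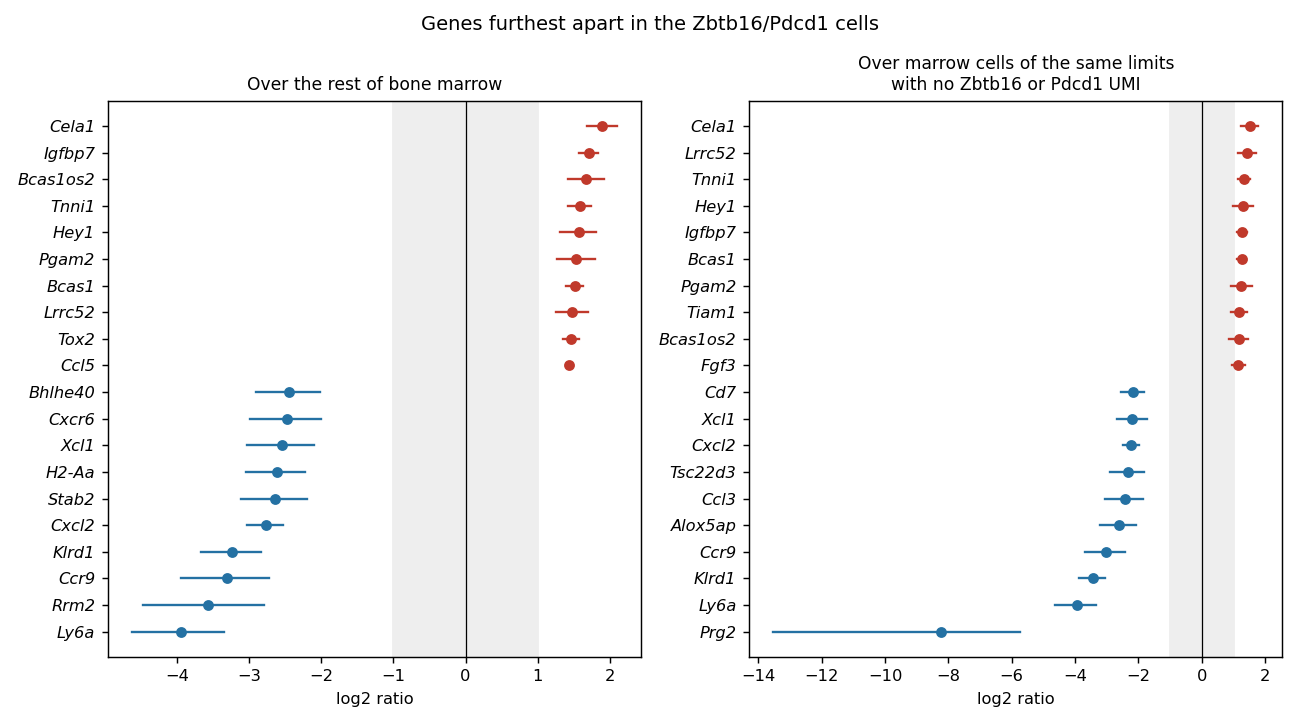
Log2 ratio of the 10 genes furthest up (red) and the 10 furthest down (blue) in the Zbtb16/Pdcd1 cells, over the rest of bone marrow (left) and over marrow cells that meet the same limits with no Zbtb16 or Pdcd1 UMI (right). Points are ratios of summed levels, lines are 95% counting intervals and the grey band spans 2-fold in either direction. Cela1, Tnni1, Hey1, Igfbp7 and Bcas1 are above the band on both sides.

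The upper limits alone remove many cell types, so the same cells were also set against the 1990 marrow cells that meet every limit and have no Zbtb16 or Pdcd1 UMI. This comparison was added after the data were seen. Of 4612 genes, 31 (0.672%) were at least 2-fold higher and 93 (2.02%) at least 2-fold lower. The 10 furthest up were Cela1, Lrrc52, Tnni1, Hey1, Igfbp7, Bcas1, Pgam2, Tiam1, Bcas1os2 and Fgf3. Both comparisons share the Zbtb16/Pdcd1 cells. Cela1 had 94.4 and 33.0 CPM, Lrrc52 80.8 and 29.8 CPM and Fgf3, a secreted growth factor, 129.7 and 58.2 CPM. Ly6a, Klrd1, Ccr9, Cxcl2, Xcl1 and Cd7 were lower, Ly6a at 8.08 against 125 CPM. Prg2, the major basic protein of eosinophils, had 1 UMI against 749, but without the 5% of cells with the most UMIs its log2 ratio was 0.28. Among cells with at least 1000 genes 18 genes were higher, and the log2 ratio of Ly6a was -2.06.

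Levels were also followed along the number of marker UMIs, at the fixed upper limits. Tcf7 had 315 CPM in cells with no marker UMI, 476 with 1, 478 with 2, 487 with 3 and 528 with 4 or more. Igfbp7 had 101, 247, 229, 249 and 284 CPM along the same steps. Bcl2, which encodes a survival factor, had 442, 696, 679, 700.0 and 807 CPM. In all 3 the step from 0 to 1 UMI was larger than any later step, and the cells with a single marker UMI, which the rule leaves out, were close to the cells with 2.

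Ly6a showed the reverse, with 125 CPM at no marker UMI and 11.1, 7.15, 13.5 and 2.65 CPM at the later steps. Klrd1 went down more gradually, with 201, 60.3 and 29.8 CPM at 0, 1 and 2 UMIs and no UMI at 3 or more. Ccl5 had 1677, 2919, 3344, 4096 and 4502 CPM, and Id2 945, 1129, 1229, 1341 and 1872 CPM, each higher at every step. Depth moved along the same steps, with median UMIs of 2879, 3900, 4298, 4324 and 4874 per cell, and its part in these levels was not tested.

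**Figure D3:**
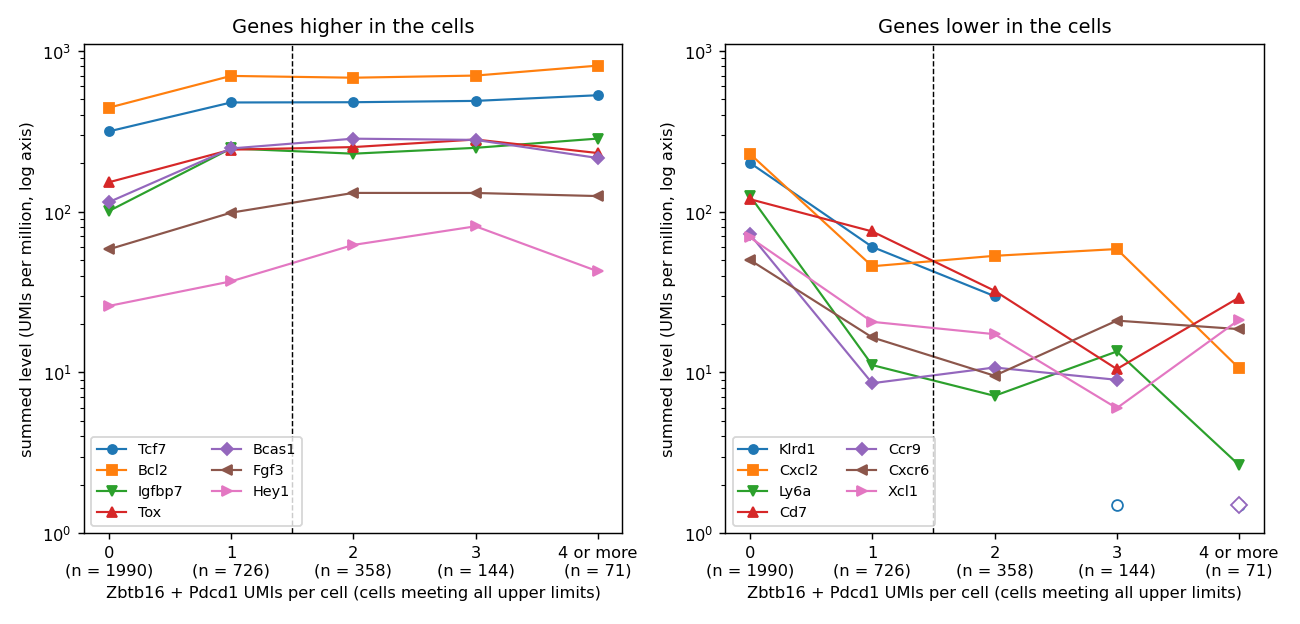
Summed level in CPM on a log axis, against the number of Zbtb16 and Pdcd1 UMIs per cell among marrow cells that meet all upper limits, for 7 genes (left) and 7 further genes (right). The dashed line marks the rule and open symbols at the bottom mark levels of 0. Tcf7, Igfbp7 and Bcl2 step up and Ly6a steps down mainly between 0 and 1 UMI.

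Against the NK or ILC1-like cells the Zbtb16/Pdcd1 cells held more RNA of Bcl11b, Lmo4 and Tox2 and far less of NK receptors. Of 4735 genes, 366 (7.73%) were at least 2-fold higher and 324 (6.84%) lower. With trimmed-mean (TMM) scaling these counts were 289 and 393. Bcl11b, a factor of T cells and ILC2, had 133 CPM, against 5.11 CPM in the NK or ILC1-like cells (4.70, 3.57 to 6.16). Bcas1 had 273 and 9.37 CPM (4.86) and Fgf3 129.7 and 6.81 CPM (4.25). With thinned cells these 3 log2 ratios were 3.42, 3.66 and 3.42. Bcl11b and Fgf3 had only 6 and 8 UMIs in the unthinned NK or ILC1-like cells. Their thinned values may thus be bounded by the floor of 3 counts set for an absent count.

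Of 26 listed ILC progenitor transcription factors, 20 were measured at 20 CPM or more and 10 of these were at least 2-fold higher, with none lower. Their median log2 ratio was 1.03, against 0.06 over all 4735 genes. Lmo4, Tox2 and Myb led after Bcl11b, with log2 ratios of 2.85, 2.84 and 2.13. Rora, listed among ILC2 genes, had 999 CPM against 280.2 CPM, and Itga4, part of the sorted integrin, 286 against 104 CPM. Of 11 measured ILC progenitor surface genes, 3 were higher and 4 lower, with a median log2 ratio of -0.58. Angpt1, a ligand of the Tie2 receptor made by stem cells, had 45.6 and 2.56 CPM.

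NK receptors were lower, a direction the rule fixes in part through Eomes, Ncr1, Klrk1, Klrb1c and Tbx21. Of 21 measured NK and ILC1 genes outside the rule, 16 were at least 2-fold lower and 1, Ccl5, was at least 2-fold higher, with a median log2 ratio of -3.54. Klrd1 had 18.4 CPM against 1707 CPM, and the chemokine gene Xcl1 15.1 against 947 CPM. Klri2, Klra4 and Klre1, lectin-like receptors of NK cells, had 2, 1 and 7 UMIs, against 194, 94 and 142. Klrc1, which encodes NKG2A, had no UMI against 51.1 CPM. Set against a floor of 3 counts its log2 ratio was -5.54, with an upper interval bound of -5.19.

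Some genes tied to cytotoxic cells were well detected, and Nkg7 is named here after its values were seen. Nkg7, a granule protein gene, stood at 638 CPM in the Zbtb16/Pdcd1 cells, against 1163 CPM in the NK or ILC1-like and 189 CPM in the ILC2 progenitor-like cells. Fcer1g, an adaptor of activating receptors, stood at 1420.4, 718 and 347 CPM, and Ccl5 at 3689, 982 and 939.9 CPM in the same order. Fcer1g and Ccl5 were thus higher in the Zbtb16/Pdcd1 cells than in either committed class. Replication genes were low, with 15 of 19 measured S phase genes at least 2-fold lower than in the NK or ILC1-like cells, to which the limit on dividing cells also applied.

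Against the ILC2 progenitor-like cells Tox2, Myb and Tcf7 were higher and most immediate early genes lower. Of 4772 genes, 257 (5.39%) were at least 2-fold higher and 350 (7.33%) lower. Tox2 had 298 CPM, against 48.2 CPM (2.63, 2.33 to 2.94), Myb 119 against 20.6 CPM (2.53) and Tcf7 487 against 103 CPM (2.24). Cela1, Bcas1, Tnni1 and Fgf3 were again among the 10 furthest up, with log2 ratios of 3.20, 2.92, 2.86 and 2.72. Of 21 measured ILC progenitor transcription factors, 8 were higher and 1, Runx1, was lower, and the median of 0.10 was close to the 0.09 over all genes. Of 12 measured ILC progenitor surface genes, 2 were higher and 6 lower, with a median of -0.98.

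Some surface and cytokine genes and most immediate early genes were lower. For ILC2 genes the rule fixes this direction in part through its limit on them. Ly6a had 8.08 CPM, against 457 CPM (-5.82), and Ccr9 8.82 against 238 CPM (-4.76). Il4 had 6.98 against 88.9 CPM and Il2ra, excluded by the gate at the protein level, 1 UMI against 34.6 CPM. Nfkbia, the feedback inhibitor of NF-kB, had 499 against 4076 CPM, and Zfp36, which destabilises cytokine RNAs, 459 against 2525 CPM. Of 23 immediate early genes, 18 were at least 2-fold lower and none higher, with a median log2 ratio of -1.32. NF-kB and cytokine feedback genes gave 9 lower and 1 higher of 15, the higher one being Bcl2 at 702 against 217 CPM.

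Depth differed between these classes, with a median of 4339 UMIs in the Zbtb16/Pdcd1 cells and 1986 UMIs in the ILC2 progenitor-like cells. Among cells with at least 1000 genes, 550 against 252 cells, 12 of 23 immediate early genes were at least 2-fold lower and 4 of 21 ILC progenitor transcription factors at least 2-fold higher. The log2 ratio was then 1.67 for Tox2, 1.61 for Myb and -4.81 for Ly6a, and of all 4748 genes 142 (2.99%) were higher and 251 (5.29%) lower. NK and ILC1 genes outside the rule were higher in 7 of 10 measured without this limit on depth and in 2 of 12 with it. List counts with this limit, unlike those without it, did not leave out genes that the rule uses, where a list holds any.

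**Figure D4:**
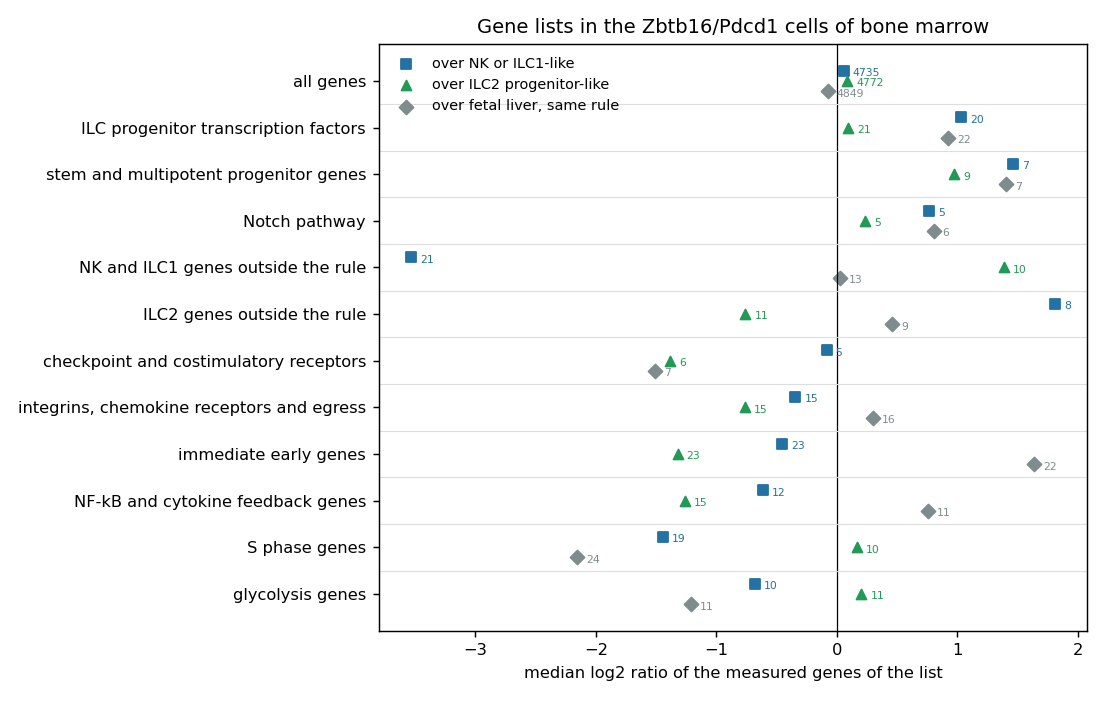
Median log2 ratio of the measured genes of each list in the Zbtb16/Pdcd1 cells over 3 other groups of cells, with the median of all genes in the top row. The number beside each marker is the number of genes measured at 20 CPM or more. Immediate early genes lie at -1.32 over the ILC2 progenitor-like cells and at 1.64 over fetal liver cells of the same rule.

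Among themselves the Zbtb16/Pdcd1 cells varied most in Ccl5. With 564 of the cells thinned to 2000 UMIs, the variance of Ccl5 was 19.5 times its mean, against a median of 1.04 over 2173 genes, and 59.6% of the cells had a Ccl5 UMI, with up to 86 UMIs in 1 cell. The next was Ccl4, another chemokine, with a ratio of 18.4 and UMIs in only 22 of the 564 cells. Lmo4 had a ratio of 4.81 and Hes1, a Notch-induced repressor, 4.63, with a UMI in 83.7% and 40.8% of the cells. The highest cell held 25 UMIs of Lmo4 and 35 of Hes1, against means of 6.48 and 0.819. The part of that 1 cell in the Hes1 ratio was not tested. These ratios describe the spread of counts in 1 library.

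The 380 cells with a Pdcd1 UMI were set against the 193 taken by Zbtb16 alone. Of 4704 genes, 47 (0.999%) were at least 2-fold higher and 37 (0.787%) lower. Bcl11b had 160.1 CPM in cells with Pdcd1, against 77.4 CPM in cells without (1.05, 0.67 to 1.45), and Ccl5 4254 against 2527 CPM (0.75). Ccl4 was lower at 45.9 against 156 CPM, but 77 of its 223 UMIs came from 1 cell. Car1, first by ratio, had 122 of its 123 UMIs in 1 cell. With thinned cells the log2 ratio of Bcl11b was 0.46. Median depth was 4365 UMIs in cells with Pdcd1 and 4314 in cells without, and 20 of 21 measured ILC progenitor transcription factors were within 2-fold.

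The same rule applied to fetal liver took 673 of 8583 cells (7.84%, interval 7.28 to 8.43%). The fetal cells were deeper, with a median of 8934 UMIs against 4339 in marrow. At 2000 UMIs per cell the rule took 242 of 5923 marrow cells (4.09%) and 155 of 8452 fetal liver cells (1.83%). The makeup differed as well. Zbtb16 was detected in 85.0% of the marrow cells and 54.7% of the fetal cells, and Pdcd1 in 66.3% and 87.2%. Zbtb16 stood at 314 CPM in the marrow cells and 93.5 CPM in the fetal cells, and Pdcd1 at 226 and 209 CPM. The rule chose both groups by these 2 genes at unlike depths, so these shares and levels are a description. Over all kept cells Zbtb16 had 62.1 CPM in marrow and 29.3 CPM in fetal liver, and Pdcd1 42.5 and 44.4 CPM.

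Between the marrow and fetal cells chosen this way tissue, stage, library and any difference in sex cannot be told apart. Of 4849 genes, 510 (10.5%) were at least 2-fold higher in marrow and 426 (8.79%) lower. With TMM scaling 436 were higher and 505 lower, so which side is larger depends on the scaling. Of 22 measured ILC progenitor transcription factors, 10 were at least 2-fold higher in marrow and 1 lower, with a median log2 ratio of 0.92 (-0.08 over all genes). Gata3 had 457 CPM in marrow and 137 CPM in fetal cells (1.73), Sox4 456 and 114 CPM (2.00), and Rora, from the ILC2 list, 999 and 344 CPM (1.54). Of 12 measured ILC progenitor surface genes, 1 was higher in marrow and 7 lower, with a median of -1.48. Il18r1 was the higher one, at 201 against 43.3 CPM, and Cd160, a receptor of NK and ILC1 cells, was lower at 6.98 against 92.0 CPM. Tcf7 was near level at 487 and 426 CPM. Runx1, needed for blood stem cells to arise, was the one that was lower, at 8.45 against 67.3 CPM.

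Bcas1 had 273 CPM in marrow and 8.54 CPM in fetal cells (interval of the log2 ratio 4.61 to 5.42), and Chd3, a remodeller of the NuRD complex, 163 and 5.34 CPM (4.94). Cpne2 had 267 UMIs against 3, which put its log2 ratio at 7.74 (6.18 to 10.03). Bcl2 was higher at 702 against 130.1 CPM. H2-Q6 and H2-Q7 were higher too (3.87 and 3.86), but these near-identical class I genes can share reads and their separate values are uncertain. Immediate early genes were higher in 16 of 22, such as Fos at 2602 and 530.1 CPM.

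Genes lower in marrow included fetal and imprinted genes, lower in 6 of 7 measured. Dlk1 had 2 UMIs against 807, and the imprinted RNA H19 6.61 against 315 CPM. Ifitm1, a restriction factor also found in embryonic cells, had 2 UMIs against 4936. Il22 and Lta, cytokine genes of ILC3 and lymphoid tissue inducer cells, had 0.735 and 5.51 CPM in marrow, against 219 and 317 CPM in fetal cells. Cd3g, a chain of the T cell receptor complex, had 5.14 against 482 CPM. S phase genes were lower in 20 of 24 measured, with a median log2 ratio of -2.16, and glycolysis genes in 8 of 11. Xist, the RNA of the inactive X chromosome in females, had no UMI in the marrow cells against 1718 in the fetal cells, and the labels give no sex for either library.

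Markers of other cell types moved with this comparison. The 3 measured T cell markers summed to 7.72 CPM in marrow and 539.6 CPM in fetal cells, and the ILC3 and lymphoid tissue inducer genes Il22 and Lta were far lower in marrow, as given above. Their part in the differences was not tested. With thinned cells 950 of 5282 genes (18.0%) were at least 2-fold higher and 831 (15.7%) lower, and the log2 ratio of Cpne2 was 3.09 and of Il22 -6.07. Cpne2 had only 3 fetal UMIs before thinning, so its thinned value is bounded by the floor of 3 counts. Among the same thinned cells 15 of 22 ILC progenitor transcription factors were higher in marrow. Unlike the count without thinning, it did not leave out genes that the rule uses, where the list holds any.

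**Figure D5:**
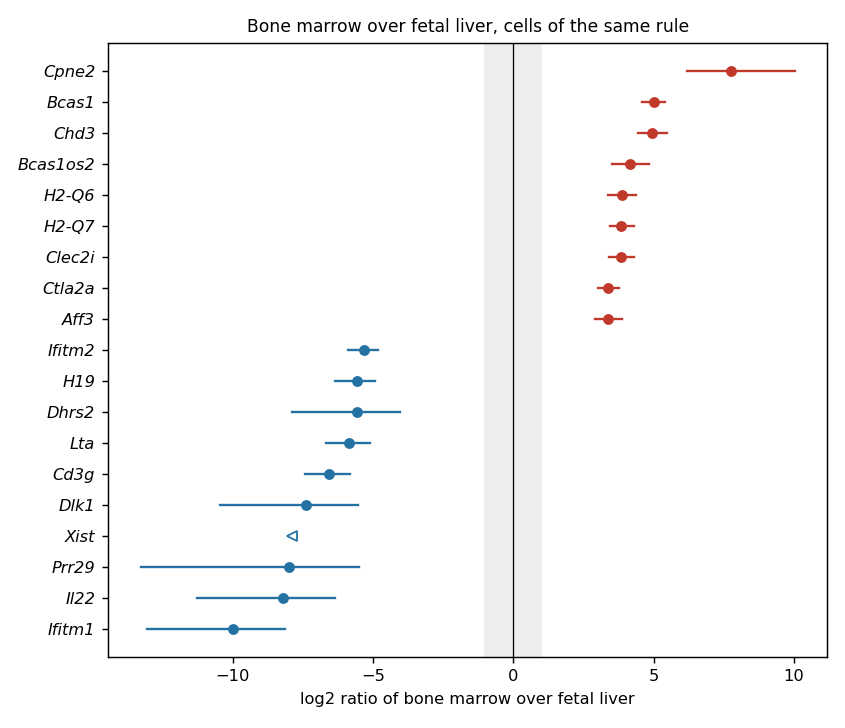
Log2 ratio of 9 of the 10 genes furthest up and the 10 furthest down in the 573 marrow cells over the 673 fetal liver cells taken by the same rule, with 95% counting intervals as lines and the 2-fold band in grey. The open symbol is Xist, with no UMI in marrow, drawn against a floor of 3 counts, and Ifitm1 lies lowest at -10.00 (interval -13.05 to -8.15).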

How the data were processed

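Single-cell RNA was captured with the 10x Chromium 3' chemistry and sequenced on an Illumina NovaSeq, per the labels. The deposited values are raw UMI counts for each gene in each barcode, in matrix format version 2 written by software version 3.0.1, per the file headers. The submitters' processing notes name Seurat 4.0 and the build mm10. The aligner, gene annotation and any doublet removal were not given in the sources used here, and no doublet caller was run. Sort purity and viability were above 90%, per the labels.

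Cells with at least 500 genes and at most 10% mitochondrial UMIs were kept, which removed 109 of 7367 marrow barcodes and 363 of 8946 fetal liver barcodes. Cell types were rebuilt here from the gene sets of the rule, so class names are approximate. UMIs were summed over the cells of a group and divided by the group's total. Genes reaching 20 CPM in either group were compared by the log2 ratio of CPM, with an exact conditional 95% interval, and counted as higher or lower from 2-fold. With 1 library per tissue and animals not resolved, no p-value was computed. The ratio and its interval were tested on data simulated with counting error only, so the spread between cells was not covered. Coordinates come from GENCODE M21, which matched 27645 of 27998 gene IDs, and sequences from RefSeq. The 121 rows whose symbol another row shares were kept apart by gene ID.

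Named genes are the 10 largest and 10 smallest ratios of a comparison among genes of at least 50 CPM, without rule, ribosomal, mitochondrial and unnamed genes. From each of 24 gene lists (415 genes) up to 4 with the largest ratio and the 2 highest were added. Genes followed across classes or marker UMIs beyond these, among them Runx3, Tcf7 and Nkg7, were named after their values were seen. A few genes that this rule names are not reported here. The members and lists were chosen with earlier results of these data known. Alternatives changed the scaling (TMM), the CPM minimum, the weight of cells, the cell limits, the depth and the marker rule. The tools were Python 3.11.15, NumPy 2.4.6, SciPy 1.17.1, pandas 2.3.3, R 4.3.3 and edgeR 4.0.16.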

Additional observations from a re-analysis of the deposited data

How the results depend on the processing

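No paired analysis was possible because each tissue has 1 library. Of 123 alternative values of gene counts and of the share of Zbtb16/Pdcd1 cells, 66 stayed close to the reported value and 57 moved. For single named genes, 592 of 800 alternative ratios stayed close, 201 moved and 7 changed sign. A ratio was called close when inside the counting interval of the reported ratio, which is wide for genes with few UMIs. Gene counts and the share were judged by other rules.

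Counts of genes at least 2-fold higher and lower followed the CPM minimum. With minimums of 50, 5 and none, 30, 174 and 1099 genes were higher over the rest of marrow, and 79, 510 and 1036 lower. Over NK or ILC1-like cells 122, 1156 and 1538 were higher and 148, 710 and 1306 lower. Over ILC2 progenitor-like cells 110, 807 and 1391 were higher and 173, 775 and 1247 lower. Over fetal liver cells 238, 1111 and 2176 were higher and 229, 909 and 1441 lower. In cells with Pdcd1 over those without, 3, 385 and 636 were higher and 2, 452 and 1164 lower. Over cells with no marker UMI 18, 134 and 856 were higher and 37, 327 and 814 lower.

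With cells thinned to 2000 UMIs, 154 genes were higher over the rest, 833 higher and 582 lower over NK or ILC1-like cells, and 538 higher over ILC2 progenitor-like cells. Over fetal liver 950 were higher and 831 lower. In cells with Pdcd1 524 were higher and 534 lower, and over cells with no marker UMI 151 were higher and 176 lower. With each cell weighing the same, 401 were higher over ILC2 progenitor-like cells, 73 lower in cells with Pdcd1 and 51 higher over cells with no marker UMI. With at least 1000 genes per cell these were 142 higher over ILC2 progenitor-like cells and 18 higher over cells with no marker UMI. A marker sum of at least 3 gave 62 higher over cells with no marker UMI. Thinning leaves 242 Zbtb16/Pdcd1 cells, and the cause of the larger counts was not tested.

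The share of Zbtb16/Pdcd1 cells was 10.7% with at least 1000 genes, 4.09% with thinned cells, 3.90% by Zbtb16 alone, 2.96% with a sum of at least 3 and 10.8% with no upper limits.

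The ratios that changed sign were mostly in the Pdcd1 split. Car1 had -2.63 without the 5% deepest cells and -0.83 with thinned cells. Cells without Pdcd1 had no Car1 UMI, and an absent count was set to a floor of 3 counts. Both Car1 values rest on that floor, so they do not show a lower level in cells with Pdcd1. With thinned cells Ly96 had -0.30, Cxcl2 -1.07, Hacd1 0.17 and Mcm6 0.17. Prg2 over cells with no marker UMI had 0.28 without the 5% deepest cells. The cause of the other changes was not tested, and 1 cell holds nearly all Car1 UMIs. A gene with no UMI in the 573 cells has an upper limit of 1.10 CPM at 3 counts, so lower levels could not be detected.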
